A study of Mus musculus with 6 samples.

Results

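The antioxidant defence genes described here are 10 genes whose enzymes remove superoxide and peroxides, keep thioredoxin and glutathione reduced, or switch such genes on: Sod1, Sod2, Cat, Gpx1, Gpx4, Prdx1, Prdx5, Txnrd1, Gclm and Nfe2l2. They were found by symbol among the 21780 genes of the count table, all 10 were present, and all 10 were among the 14429 protein-coding genes tested. Cells carrying CD45 and CD11b, the surface proteins of leukocytes and of myeloid cells, were sorted from the pancreas of wild-type C57BL/6J mice, and their RNA was sequenced in 3 libraries per group. The PBS group had received an intraperitoneal injection of PBS and the WGP group 1 mg of whole glucan particles, hollow yeast cell walls rich in beta-glucan, each given 7 days before harvest. The study used male and female mice 6 to 8 weeks old and took each library from a separate animal, and the sex behind each library was not given. Total counts were 35334645, 38419377 and 40580936 in the PBS libraries and 38240913, 43341834 and 41990018 in the WGP libraries.

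Superoxide, which phagocytes make with their NADPH oxidase and which also leaks from mitochondria, is turned into hydrogen peroxide by superoxide dismutases. Catalase, glutathione peroxidases and peroxiredoxins then reduce the peroxide, and thioredoxin reductase and glutathione keep that machinery in its reduced state. NRF2, the transcription factor that Nfe2l2 encodes, switches on many of these genes once KEAP1 stops marking it for degradation.

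The libraries differed in other RNA before any antioxidant gene was considered. Markers of myeloid cells were present in all 6 libraries, with Lyz2 the most abundant at 4933 to 8230 CPM (counts scaled to a common library size with TMM factors) in PBS and 15657 to 16887 in WGP, and 6 of the 9 were called higher in WGP. Of 10 markers of resident macrophages, led by C1qa, all 10 were called lower, with summed levels of 6275, 11504 and 14448 CPM in PBS and 1342, 2188 and 1877 in WGP. Of 8 markers of Ly6C-high monocytes, 5 were called higher and 0 lower (3 of the 8 were not called), and their sum, led by Fn1 (itself not called), went from 1849, 2130 and 3051 to 7013, 8210 and 6497 CPM. In bulk libraries fewer cells of a type and less RNA per cell cannot be told apart. Neutrophil markers, led by S100a9, had 2 of 11 called higher and 1 lower, and PBS 1 was the highest at a summed 6583 CPM beside 2444 to 3768 in the other 5 libraries. Acinar markers, led by Pnlip, summed to 2444, 5731 and 1520 CPM in PBS and to 452, 669 and 402 in WGP, with 10 of 10 called lower. B cell markers, led by Cd79a, were also lower, 5 of 5, and PBS 1 stood apart with a sum of 2414 CPM beside 621 and 361 in the other PBS libraries and 151, 169 and 86.8 in WGP. Genes of the response to tissue dissociation summed to 25804, 30969 and 23832 CPM in PBS and 11877, 8706 and 11550 in WGP, with 6 of 9 called lower. Fos, the most abundant over all libraries, was not called, and Fosb, the most abundant in PBS, was called lower. WGP 2 stood apart by RNA of fibroblasts, led by Col3a1, at a sum of 1803 CPM beside 48.2 and 33.7 in WGP 1 and WGP 3 and 171, 80.7 and 121 in PBS, although 0 of the 5 markers were called. It also held the most mesothelial RNA, led by Upk3b (51.8 CPM beside 1.17 to 10.1 in the others), and the most erythroid RNA, led by Hbb-bs (207 CPM beside 32.1 to 117). The 4 Y-linked genes held 8972 and 10063 counts in PBS 2 and PBS 3, 1 count in WGP 3 and 0 in the rest. The part of these differences in the results below was not tested. The counts of genes called among the 10 and the wider antioxidant genes were also computed without each library. So were the fold changes of the 10 and of most other antioxidant genes named. These fold changes were also fitted with a Y-linked covariate, which marks PBS 2 and PBS 3. PBS 1 is the only PBS library without Y-linked RNA, so with this covariate the fold change is WGP against PBS 1 alone. It rests on PBS 1 as the whole control group and is given without a call. Ranges of adjusted p and counts of alternatives include this fit unless said otherwise.

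Of the 10 genes, 6 were called higher after WGP and 0 lower by edgeR (threshold 0.05 on the adjusted p), namely Sod2, Prdx5, Nfe2l2, Txnrd1, Prdx1 and Gclm. Over all genes tested 14.4% were called, 7.54% higher and 6.81% lower. The 0 lower in edgeR compares with 1 lower in DESeq2 and 0 in limma-voom, and 3754 of all genes tested had an unadjusted p below 0.05 in edgeR. All 6 also reached a log2 fold change of 1 or more in size, a rule that 9.49% of all genes met. The groups did not overlap for 9 of the 10, with WGP the higher group for 7 and the lower for 2, where 32% of all genes had groups that did not overlap. The median log2 fold change of the 10 was 1.11, against a median of -0.05 over all genes tested, and was 0.71 without WGP 2. Together the 10 genes held 0.191%, 0.188% and 0.198% of all counts in the PBS libraries and 0.367%, 0.451% and 0.369% in the WGP libraries. The highest of these shares was that of WGP 2, and the lowest WGP share was above every PBS share.

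**Figure D1:**
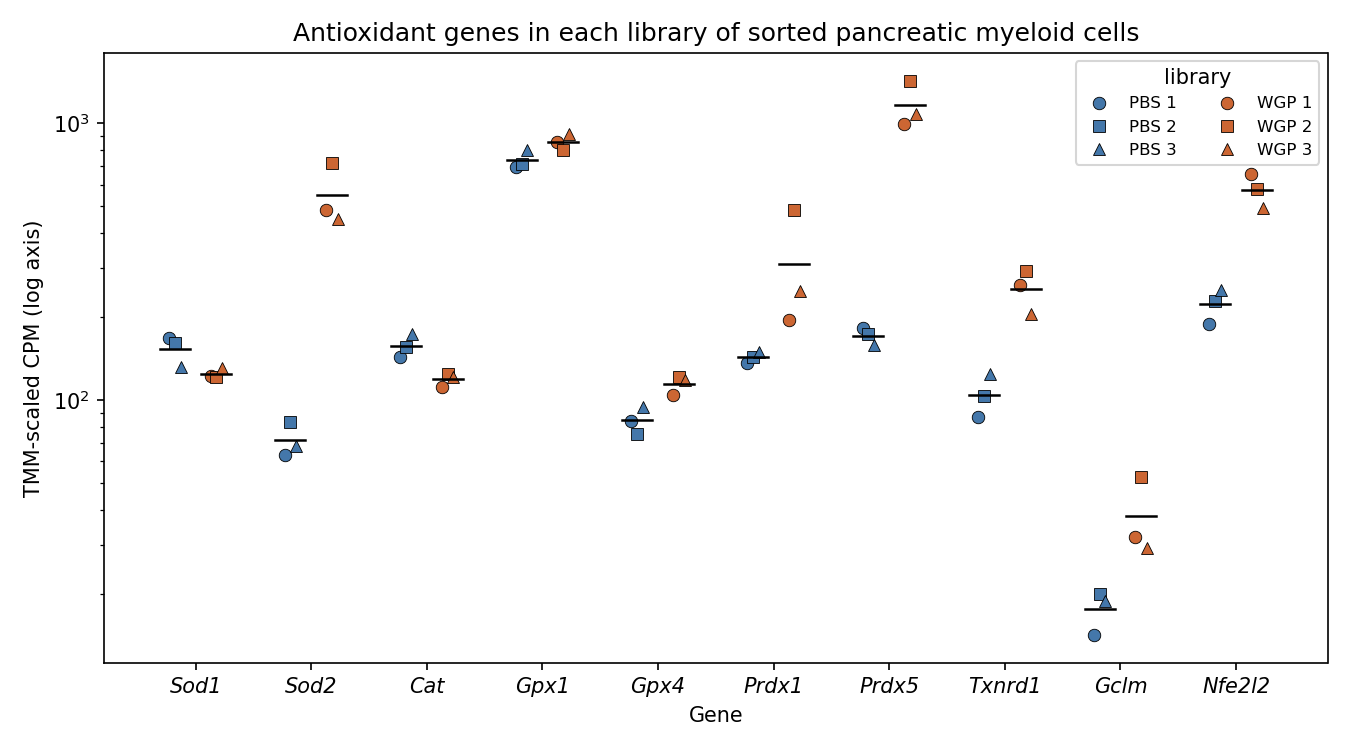
Level of each of the 10 genes as TMM-scaled CPM on a log axis, with 1 point per library (PBS in blue, WGP in orange) and a bar at each group's mean. Sod2 and Prdx5 show the widest gaps between the groups, Gpx1 is the gene whose groups overlap, and WGP 2 is far above WGP 1 and WGP 3 for Prdx1.

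Of the superoxide dismutases of the mitochondria and the cytosol, Sod2 was called higher and Sod1 was not called. Sod2, which encodes the manganese enzyme of the mitochondrial matrix, lies at chr17:13006846-13040063 (GRCm38). Its level was 63.1, 83.6 and 68.0 CPM in PBS 1 to 3 and 484, 720 and 450 CPM in WGP 1 to 3. Every WGP library was far above every PBS library, with WGP 2 the highest. The means were 71.5 ± 10.7 CPM in PBS and 551 ± 147 CPM in WGP (SD, n = 3 each), a 7.71-fold rise, with a log2 fold change of 2.95 ± 0.22 (SE) and an edgeR adjusted p of 2.0e-05. Sod1, at chr16:90220754-90226329, encodes the copper and zinc enzyme of the cytosol. It stood at 167, 160 and 132 CPM in PBS and at 122, 121 and 131 CPM in WGP. The WGP libraries lay just under the PBS libraries, the highest of them at nearly the level of PBS 3. Its log2 fold change of -0.30 ± 0.15 did not pass the threshold (edgeR adjusted p = 0.235), which does not show that the level was the same. Per kilobase of exon, the ratio of Sod2 to Sod1 was 0.15, 0.207 and 0.205 in the PBS libraries and 1.57, 2.36 and 1.37 in the WGP libraries. With merged exon lengths of 10.008 kb for Sod2 and 3.97 kb for Sod1, Sod2 was below Sod1 in each PBS library and above it in each WGP library. These lengths join all annotated exons of a gene, and the transcripts present can be shorter, so the order of the genes depends on them. Sod3, the enzyme secreted outside cells, was at 4.16, 4.0 and 4.33 CPM in PBS and at 0.407, 33.1 and 2.13 CPM in WGP. Only WGP 2, the library with the most fibroblast RNA, was above the PBS libraries, and the part of that RNA was not tested. The log2 fold change of 1.51 ± 1.13 (adjusted p = 0.431 in edgeR) became -1.72 without WGP 2.

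Among the enzymes that remove hydrogen peroxide, Prdx5 and Prdx1 were called higher, and Cat, Gpx1 and Gpx4 were not called. Prdx5, at chr19:6906697-6910106, encodes a peroxiredoxin found in mitochondria, peroxisomes and the cytosol. It was measured at 181, 173 and 159 CPM in PBS and at 991, 1423 and 1077 CPM in WGP. Its PBS libraries were close together, and all WGP libraries were several times higher. The means of 171 ± 11.6 and 1163 ± 229 CPM (SD, n = 3) differed 6.81-fold, with a log2 fold change of 2.77 ± 0.18 and an edgeR adjusted p of 1.3e-05. Prdx5 shares 19.1% of its exon bases with Trmt112, a gene on the opposite strand. The strand setting of the counting is not given in the sources used here, so how reads over these bases were counted is not known. Trmt112, named after its values were seen, had 30.5 ± 8.10 CPM in PBS and 33.2 ± 7.72 CPM in WGP and was not called.

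Prdx1, a cytosolic peroxiredoxin at chr4:116685544-116700822, had 136, 143 and 149 CPM in PBS and 194, 486 and 248 CPM in WGP. All WGP libraries were above the PBS libraries, but WGP 2 alone held a level far above WGP 1 and WGP 3. The log2 fold change was 1.11 ± 0.29, or 2.17-fold, with an edgeR adjusted p of 0.0269. Without WGP 2 it was 0.63 and was still called (adjusted p = 0.0356). The call was lost without PBS 1, PBS 2 or PBS 3 (log2 fold changes of 1.08, 1.12 and 1.15, adjusted p of 0.0575, 0.0950 and 0.0617). With the Y-linked covariate, thus against PBS 1 alone, the log2 fold change was 1.19. Over the other alternatives adjusted p ranged from 0.00182 to 0.0950. Prdx1 also has pseudogene copies, and 4.03% of the 75-base windows of its transcripts occur in other annotated genes.

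Catalase, which breaks hydrogen peroxide down in peroxisomes, is encoded by Cat at chr2:103453849-103485160. Its level was 143, 155 and 172 CPM in PBS and 111, 124 and 121 CPM in WGP. Every WGP library was below every PBS library. The means were 157 ± 14.8 and 119 ± 6.83 CPM (SD, n = 3), and the log2 fold change of -0.40 ± 0.14 did not pass the threshold (edgeR adjusted p = 0.0933). It did pass when libraries were scaled by their totals only (-0.50, adjusted p = 0.0334), a scaling that moved the median of all genes by -0.10, in DESeq2 (-0.41, adjusted p = 0.0484) and without PBS 1 (-0.46, adjusted p = 0.0491), within a range of 0.0334 to 0.404 over the alternatives.

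Gpx1, at chr9:108338903-108340343, encodes the main cytosolic glutathione peroxidase, a selenoprotein. Its level of 696, 714 and 803 CPM in PBS and 855, 797 and 910 CPM in WGP was high throughout. The groups overlapped, since WGP 2 fell just below PBS 3. With means of 737 ± 57.1 and 854 ± 56.7 CPM (SD, n = 3) the log2 fold change was 0.21 ± 0.14 and was not called (edgeR adjusted p = 0.385). Gpx4, at chr10:80047166-80056439, encodes the selenoprotein that reduces lipid peroxides in membranes. It was at 83.9, 75.3 and 94.1 CPM in PBS and at 104, 121 and 118 CPM in WGP. The WGP libraries were all higher, by little, and the log2 fold change of 0.44 ± 0.15 was not called (edgeR adjusted p = 0.0843). Near-identical copies make Gpx4 the least certain of the 10 in counting, with 29.8% of its 75-base windows present in other annotated genes, against 16.2% for Sod2, whose long transcripts share windows with many genes, and 0% for Cat, Gpx1, Txnrd1 and Nfe2l2.

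Txnrd1, at chr10:82833951-82897712, encodes the cytosolic thioredoxin reductase, a selenoprotein that passes electrons from NADPH to thioredoxin. It was at 86.4, 103 and 124 CPM in PBS and at 260, 291 and 205 CPM in WGP. The lowest WGP library was well above the highest PBS library. The means of 105 ± 18.7 and 252 ± 43.8 CPM (SD, n = 3) gave a log2 fold change of 1.27 ± 0.19, or 2.41-fold, with an edgeR adjusted p of 0.00122. Txn1, the thioredoxin that this reductase serves, was called higher as well, with 71.4 to 105 CPM in PBS and 225 to 336 CPM in WGP (log2 fold change 1.71 ± 0.20).

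Gclm, at chr3:122245557-122270732, encodes the modifier subunit of glutamate-cysteine ligase, the enzyme of the rate-limiting step of glutathione synthesis. Its level was 14.2, 19.8 and 18.7 CPM in PBS and 32.0, 52.9 and 29.1 CPM in WGP. Each WGP library was above each PBS library, and WGP 2 was again the highest. From 17.6 ± 3.00 to 38.0 ± 13.0 CPM (SD, n = 3) the log2 fold change was 1.11 ± 0.28, or 2.16-fold, with an edgeR adjusted p of 0.0218. The call was lost without WGP 2 (log2 fold change 0.80, adjusted p = 0.0780), without PBS 1 (0.98, adjusted p = 0.05002) and without PBS 2 (1.21, adjusted p = 0.0525), in a range of 0.00822 to 0.0780 over the alternatives. Other annotated genes cover 4.71% of its exon bases. Gclc, the catalytic subunit of the same enzyme, was not called, at 36.9, 36.6 and 41.8 CPM in PBS and 43.1, 38.8 and 29.3 CPM in WGP (log2 fold change -0.05 ± 0.20, edgeR adjusted p = 0.915). Its groups overlapped fully, and the difference between the subunits was not tested.

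Nfe2l2, at chr2:75675513-75704641, encodes NRF2 itself. Its level was 188, 228 and 249 CPM in PBS and 657, 576 and 493 CPM in WGP. All WGP libraries were far above the highest PBS library, and here WGP 1, not WGP 2, was the highest. The means were 222 ± 31.3 and 576 ± 82.1 CPM (SD, n = 3), with a log2 fold change of 1.38 ± 0.17, or 2.6-fold, and an edgeR adjusted p of 0.000411. RNA of NRF2 says nothing of the amount or activity of the protein, which was not measured here. Keap1, whose product marks NRF2 for degradation, was at 65.4 to 67.6 CPM in PBS and 83.7 to 89.5 CPM in WGP and was not called (log2 fold change 0.38 ± 0.14, edgeR adjusted p = 0.103). Bach1, a repressor that competes with NRF2 for DNA, was not called either (0.29 ± 0.20, edgeR adjusted p = 0.386, up to 0.721 over the alternatives). With the Y-linked covariate, thus against PBS 1 alone, the lowest PBS library for Bach1, its log2 fold change was 0.79.

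**Figure D2:**
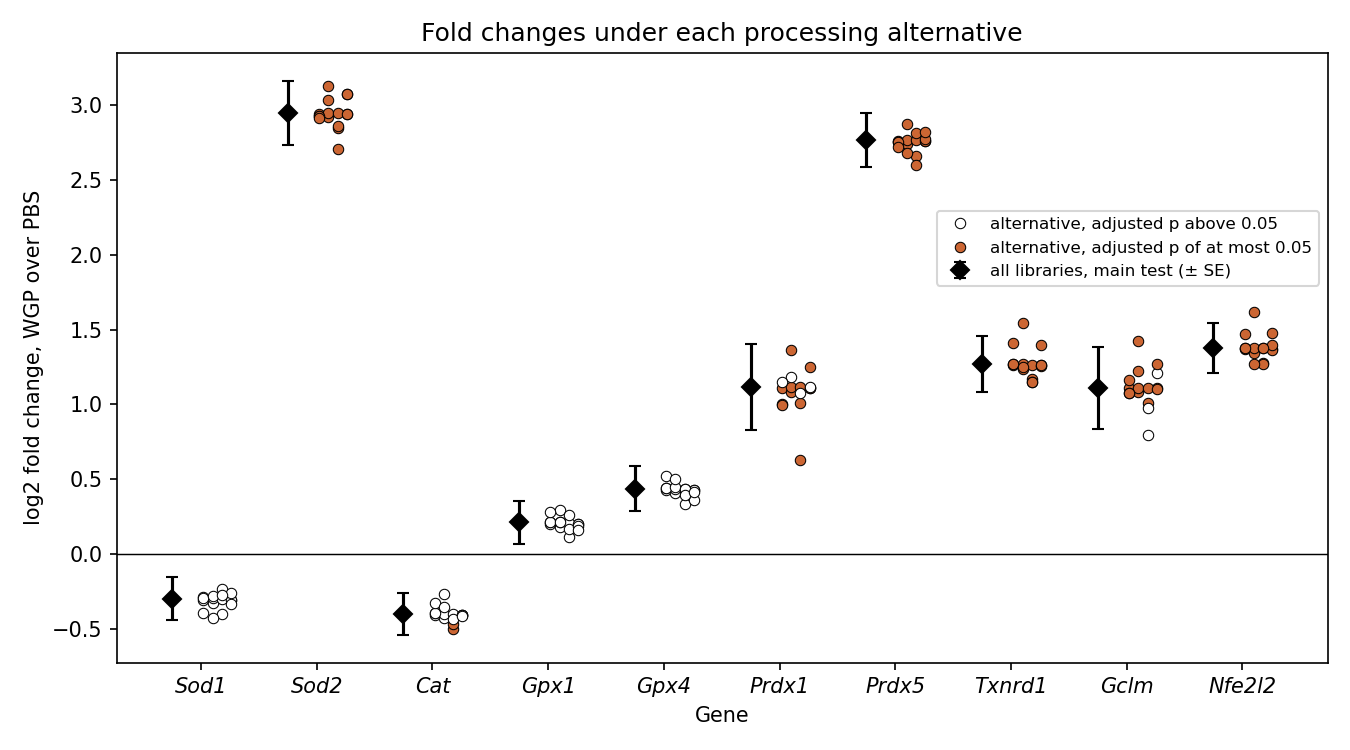
Log2 fold change of WGP over PBS for each of the 10 genes, with all libraries (black diamonds, bars ± SE) and under 16 alternatives (circles, filled where the adjusted p was at most 0.05), which comprise other scalings, tests, filters and covariates and each library left out. Sod2, Prdx5, Txnrd1 and Nfe2l2 are filled throughout, whereas Prdx1, Gclm and Cat have open and filled circles.

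Compared per kilobase of annotated exon, the 10 genes spanned a wide range of levels. In PBS, Gpx1 led with 512 ± 39.6 CPM per kb (SD, n = 3), followed by Prdx5 with 79.9 ± 5.40 and Cat with 60.04 ± 5.67. Then came Nfe2l2 (58.4 ± 8.24), Gpx4 (49.0 ± 5.45), Prdx1 (46.9 ± 2.18) and Sod1 (38.5 ± 4.74) in CPM per kb, and the lowest were Txnrd1 (14.8 ± 2.65), Sod2 (7.15 ± 1.07) and Gclm (2.80 ± 0.48). Neighbours from Cat to Prdx1 in this order overlapped in their library values, and the other neighbours did not. In WGP, Gpx1 was at 593 ± 39.3 and Prdx5 at 544 ± 107 CPM per kb, and these overlapped, whereas in PBS every Gpx1 value had been above every Prdx5 value. Nfe2l2 followed with 152 ± 21.6, Prdx1 with 102 ± 51.1, Gpx4 with 66.4 ± 5.29 and Sod2 with 55.1 ± 14.7 CPM per kb, each overlapping the next. Sod2 in turn overlapped Cat at 45.5 ± 2.62, and Txnrd1 at 35.5 ± 6.18 overlapped Sod1 at 31.4 ± 1.32, while Gclm remained lowest with 6.04 ± 2.06 CPM per kb. The long annotated exons of Sod2, 10.008 kb in all, lower its level on this scale. Every length here joins all annotated exons of a gene, such as 3.97 kb for Sod1, so the order between genes depends on these lengths. The lengths of the transcripts present were not measured.

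The 250 bases before and 50 after the annotated starts of the 10 genes were searched on both strands for TGACNNNGC, the core of the antioxidant response element to which NRF2 binds, in RefSeq promoters of GRCm38.p6. All 10 genes matched the table, with 15 windows. The core was present in 4 of the 6 genes called higher (Prdx1, Txnrd1, Gclm and Nfe2l2) and in 1 of the 4 not called (Sod1), and was in 12.4% of all 32851 windows and in 14% of the 27025 genes with a window. Sod2 and Prdx5, with the 2 highest fold changes, had no match in these windows, which says only that these letters are not there. A match is a stretch of letters, and binding was not measured. The stretches are shown, 5′ to 3′ on the gene's strand and in the order Nfe2l2 (chr2:75704855-75704913, minus strand), Gclm (chr3:122245383-122245471, plus), Prdx1 (chr4:116685426-116685514, plus), Txnrd1 (chr10:82859074-82859162, plus) and Sod1 (chr16:90220666-90220754, plus), because they let the matches of genes that moved together be compared with that of a gene that was not called. Capitals mark the core, which reads forward in Nfe2l2 and as its reverse complement in the rest.
Nfe2l2: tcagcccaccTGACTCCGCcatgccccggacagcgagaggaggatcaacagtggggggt
Gclm: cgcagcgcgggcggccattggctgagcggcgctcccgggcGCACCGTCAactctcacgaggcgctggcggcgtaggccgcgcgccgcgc
Prdx1: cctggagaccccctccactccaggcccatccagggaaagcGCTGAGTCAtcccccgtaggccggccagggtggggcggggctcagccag
Txnrd1: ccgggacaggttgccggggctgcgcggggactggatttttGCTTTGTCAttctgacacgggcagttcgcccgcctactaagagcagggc
Sod1: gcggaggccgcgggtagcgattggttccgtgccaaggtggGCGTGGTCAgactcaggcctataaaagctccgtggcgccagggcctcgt
The core ends 48 bases before the RefSeq start in Sod1, 84 in Txnrd1, 125 in Prdx1, 126 in Gclm and 232 in Nfe2l2. These RefSeq starts are not all the same as the ends of the gene positions printed above. In Txnrd1 it was found in 1 of 3 annotated promoters, and the counts do not say which of them was used.

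The wider antioxidant genes, 129 table entries for 128 symbols without the 10 genes above, held calls in both directions. Of 120 tested, 14 were called higher and 14 lower, 11.7% each beside 7.54% higher and 6.81% lower over all genes tested, and 92 were not called, with a median log2 fold change of -0.09 where all genes tested had -0.05. Without PBS 2 there were 7 higher and 9 lower, without WGP 3 there were 12 and 9, and without WGP 2 there were 11 and 17. Calls over all genes changed as well, from 2071 of 14429 to 1417 of 14183, 1445 of 14325 and 1840 of 14183. The counts of single lists below are small, and the shares beside them are the same 7.54% higher and 6.81% lower.

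Beyond the 10 genes, peroxide removal had 2 more genes called higher, Prdx6 and Srxn1, and 1 called lower, Gpx3, of 8 tested. Prdx6, which reduces phospholipid peroxides, was at 40.9 to 71.4 CPM in PBS and 158 to 165 CPM in WGP (log2 fold change 1.42 ± 0.21). Srxn1 encodes sulfiredoxin, which restores overoxidized peroxiredoxins, and was at 7.10 to 25.0 CPM in PBS and 40.3 to 69.3 CPM in WGP (1.68 ± 0.40). With the Y-linked covariate, thus against PBS 1 alone, the lowest PBS library for this gene, its log2 fold change was 2.92. Its call was lost without PBS 2 (log2 fold change 1.74, adjusted p = 0.0603) and without WGP 2 (1.46, adjusted p = 0.0533), in a range of 0.00131 to 0.0603 over the alternatives. Gpx3, the secreted glutathione peroxidase, was lower at 12.1 to 18.4 CPM in WGP beside 30.2 to 61.9 CPM in PBS (-1.47 ± 0.30). With the Y-linked covariate, thus against PBS 1 alone, its log2 fold change was -0.97. Over the other alternatives its adjusted p ranged from 0.000438 to 0.0393. Prdx2 was not called (0.36 ± 0.14, edgeR adjusted p = 0.122). Gpx2, Gpx5 and Gpx6 had 0 counts in all libraries, which with a floor of 3 counts allows up to 0.0723 to 0.0814 CPM in a library, counting error only.

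In the thioredoxin list 3 of 9 genes were called higher and 2 lower. Besides Txnrd1 and Txn1 this was Nxn, encoding nucleoredoxin (2.46 to 5.57 CPM in PBS, 9.77 to 25.9 in WGP, log2 fold change 2.15 ± 0.49). Its call was lost without PBS 2 (1.92, adjusted p = 0.0569), without WGP 2 (1.68, adjusted p = 0.0642) and in limma-voom (2.12, adjusted p = 0.0525). With the Y-linked covariate, thus against PBS 1 alone, its log2 fold change was 2.36. Txnip, whose protein binds and inhibits thioredoxin, was at 942, 1227 and 1289 CPM in PBS and 607, 617 and 682 CPM in WGP. No WGP library reached the lowest PBS library, and the log2 fold change was -0.86 ± 0.16 (edgeR adjusted p = 0.00522), or -0.57 with the Y-linked covariate. Txnrd3 was called lower from low levels (6.30 to 9.93 CPM in PBS, 1.42 to 2.94 in WGP; -2.04 ± 0.60), near the threshold at an edgeR adjusted p of 0.0472, and lost its call in 8 of 16 alternatives (log2 fold change -1.69 to -2.10 in those), among them without PBS 2, PBS 3, WGP 1 or WGP 3 (-1.86, -2.05, -1.88 and -1.85, adjusted p of 0.187, 0.0990, 0.13 and 0.118, range 0.00499 to 0.209).

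For glutathione synthesis and recycling, 4 of 16 genes including Gclm were called higher and 2 lower. Slc7a11, the cystine importer that supplies cysteine, was at 36.7, 37.9 and 20.6 CPM in PBS and 170, 168 and 128 CPM in WGP. Its WGP libraries were all more than 3 times the highest PBS library, with a log2 fold change of 2.29 ± 0.24 (edgeR adjusted p = 0.000173). Glrx, encoding a glutaredoxin, was at 14.4 to 42.8 CPM in PBS and 66.4 to 110 CPM in WGP (log2 fold change 1.60 ± 0.35), with its call lost without PBS 2 (1.56, adjusted p = 0.0575). With the Y-linked covariate, thus against PBS 1 alone, the highest PBS library for Glrx, it was 0.98. Gsr, the reductase that regenerates glutathione, was at 99.7 to 176 CPM in PBS and 228 to 317 CPM in WGP (0.91 ± 0.22). Its call was lost without PBS 2, WGP 1 or WGP 3 (0.99, 0.79 and 0.91, adjusted p of 0.0521, 0.0792 and 0.0594). With the Y-linked covariate, thus against PBS 1 alone, its log2 fold change was 0.63. The genes called lower were Oplah, of the salvage of 5-oxoproline, and Ggt5, a gamma-glutamyltransferase, at log2 fold changes of -2.34 ± 0.53 and -1.69 ± 0.40. Oplah lost its call without PBS 3, WGP 1 or WGP 3 (-1.96, -2.03 and -2.09, adjusted p of 0.0610, 0.0519 and 0.0579). Ggt5 lost its call without PBS 2 or PBS 3 (-1.57 and -1.57, adjusted p of 0.0754 and 0.0563). With the Y-linked covariate, thus against PBS 1 alone, Oplah was at -1.78 and Ggt5 at -1.15. Without WGP 2 the log2 fold change of Oplah was -3.15 (adjusted p = 0.00140). Glutathione transferases had 0 of 20 genes called higher and 1 lower, Hpgds, a prostaglandin D synthase, at 122 to 207 CPM in PBS and 22.5 to 44.6 CPM in WGP (-2.41 ± 0.28).

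**Figure D3:**
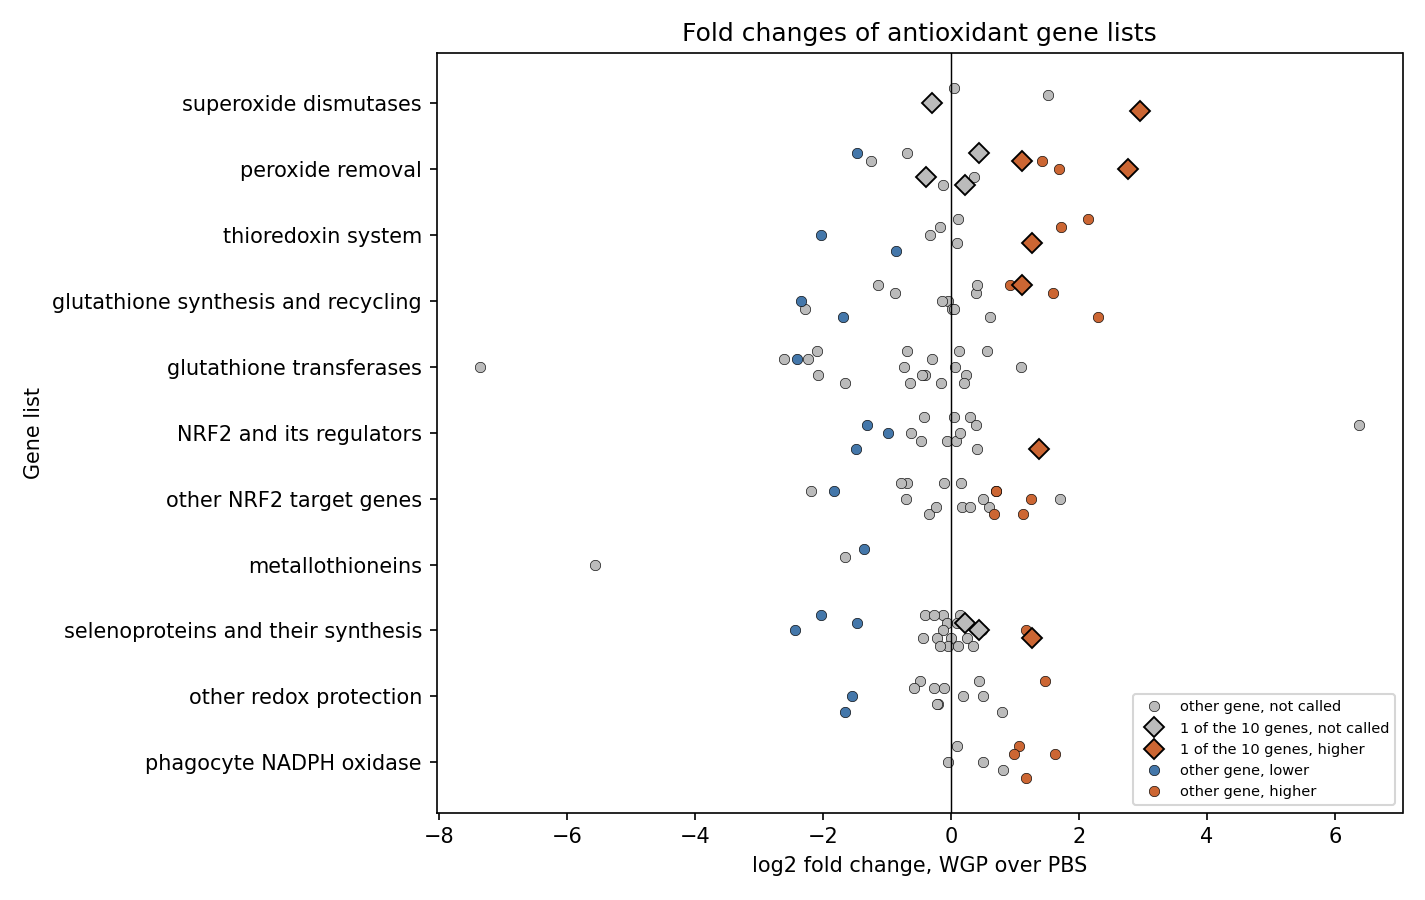
Log2 fold change of WGP over PBS for each tested gene of 11 lists, with the 10 genes as diamonds, genes called higher in orange, lower in blue and not called in grey; a gene in several lists is drawn in each. The peroxide, thioredoxin and glutathione lists hold genes called in both directions, while the NADPH oxidase list holds 4 called higher and 0 lower; the far points beyond 5 on either side are genes with few counts.

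Of 15 genes of NRF2 and its regulators, Nfe2l2 was the 1 called higher, 3 were called lower (Mafk, Maff and Bach2) and 11 were not called, among them Bach1 and the small MAF gene Mafg (log2 fold change 0.07 ± 0.17), which is named after its values were seen. Mafk, a small MAF protein that pairs with NRF2 and with BACH1, was at 176, 160 and 119 CPM in PBS and 54.8, 55.2 and 52.5 CPM in WGP. The WGP libraries lay close together, well under the PBS libraries, with a log2 fold change of -1.49 ± 0.17 (edgeR adjusted p = 0.000272). Maff, another small MAF protein, had -0.99 ± 0.24 and lost its call without PBS 1, PBS 2, WGP 1 or WGP 3 (-0.81, -1.0, -1.04 and -0.78, adjusted p of 0.0514, 0.0658, 0.0597 and 0.0699, range 0.00423 to 0.0699). Bach2, which is also expressed in B cells, had -1.32 ± 0.29 and lost its call without PBS 2 or WGP 3 (-1.18 and -1.19; 0.0618 and 0.0526, range 0.00138 to 0.0618). B cell markers fell in the same libraries, and their part in the Bach2 value was not tested.

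Of 19 known NRF2 targets outside these lists, 5 were called higher and 1 lower, where 7.54% and 6.81% of all genes tested were called. Hmox1, heme oxygenase, stood at 376, 672 and 633 CPM in PBS and 255, 494 and 228 CPM in WGP. The groups overlapped through PBS 1 and WGP 2, and the log2 fold change of -0.78 ± 0.31 was not called, but it was called lower without WGP 2 (-1.21, adjusted p = 0.0109), without PBS 1 (-1.0, adjusted p = 0.0403), in DESeq2 (-0.79, adjusted p = 0.0489) and with a replicate block (-0.82, adjusted p = 0.0419). With the Y-linked covariate, thus against PBS 1 alone, the lowest PBS library for Hmox1, its log2 fold change was -0.21. Nqo1, a quinone reductase, was at 0.928 to 1.77 CPM in PBS and 2.92 to 5.18 CPM in WGP and was not called (1.71 ± 0.87, edgeR adjusted p = 0.256). Fth1, the ferritin heavy chain that stores iron, was at 3324, 3666 and 3883 CPM in PBS and 7068, 10598 and 8207 CPM in WGP. WGP 2 was the highest and every WGP library was above every PBS library (log2 fold change 1.25 ± 0.19, edgeR adjusted p = 0.00134), while Ftl1, the light chain, was not called (0.16 ± 0.16, adjusted p = 0.571). Pgd, an NADPH-producing enzyme of the pentose phosphate pathway, was at 196 to 229 CPM in PBS and 460 to 489 CPM in WGP (1.13 ± 0.14). G6pdx, the first enzyme of that pathway, had 0.66 ± 0.15 and lost its call without PBS 2, WGP 1 or WGP 3 (0.61, 0.66 and 0.66, adjusted p of 0.0742, 0.05013 and 0.0533, range 0.000427 to 0.0742). Ephx1, microsomal epoxide hydrolase, was the 1 called lower, with 83.7 to 105 CPM in PBS and 11.9 to 36.1 CPM in WGP (-1.82 ± 0.34).

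Selenoproteins and their synthesis, a list that shares Gpx1, Gpx2, Gpx3, Gpx4, Txnrd1, Txnrd2 and Txnrd3 with the lists above, had 2 of 24 genes called higher and 3 lower, beside 7.54% and 6.81% of all genes tested. Of these 5, Txnrd1, Gpx3 and Txnrd3 are counted above. Besides Txnrd1 the gene called higher was Msrb1, a methionine sulfoxide reductase, at 96.7 to 161 CPM in PBS and 238 to 301 CPM in WGP (log2 fold change 1.18 ± 0.20, or 0.77 with the Y-linked covariate). Selenop, the secreted selenium carrier, went from 3356, 6083 and 7427 CPM in PBS to 965, 1136 and 1003 CPM in WGP. PBS 1 was the lowest of its group and still far above WGP, with a log2 fold change of -2.44 ± 0.27 (edgeR adjusted p = 0.000212). With the Y-linked covariate, thus against PBS 1 alone, it was -1.70. The summed resident macrophage markers had the same order of PBS libraries, and their part in this value was not tested. Of the metallothioneins, Mt1 was called lower (-1.37 ± 0.26), and its log2 fold change was -0.95 with the Y-linked covariate, thus against PBS 1 alone. Mt2 was not called (-1.65 ± 0.51, adjusted p = 0.0563) but passed without PBS 1 (-1.92, adjusted p = 0.0286), without WGP 2 (-2.22, adjusted p = 0.0166), with library totals (-1.75, adjusted p = 0.0404), in DESeq2 (-1.65, adjusted p = 0.0217) and with a replicate block (-1.78, adjusted p = 0.0463). With the Y-linked covariate, thus against PBS 1 alone, the log2 fold change of Mt2 was -0.90. Among other redox genes, 1 of 13 was called higher, Aifm2, which limits lipid peroxidation (1.46 ± 0.23), and 2 lower, the stress sensor Sesn1 (-1.66 ± 0.26, or -0.94 with the Y-linked covariate) and Msrb2 (-1.54 ± 0.44). Msrb2 was called only near the threshold (edgeR adjusted p = 0.0430) and lost its call in 8 of 16 alternatives (-1.39 to -1.63), without WGP 2 not among them but without each other library (adjusted p of 0.0557 to 0.154, range 0.00500 to 0.155).

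On the side that makes superoxide, 4 of 8 genes of the phagocyte NADPH oxidase were called higher and 0 lower, with the remaining 4 not called, where 7.54% of all genes tested were called higher and 6.81% lower. Cybb, which encodes the catalytic subunit gp91phox, was at 903, 1102 and 1134 CPM in PBS and 2998, 3720 and 2969 CPM in WGP. The WGP libraries were all far above the PBS libraries, with a log2 fold change of 1.63 ± 0.17 (edgeR adjusted p = 0.000153). Its membrane partner Cyba had 1.06 ± 0.15, and the cytosolic subunits Ncf1 and Ncf4 had 1.17 ± 0.16 and 0.99 ± 0.17. Markers of Ly6C-high monocytes were higher and those of resident macrophages lower in the same WGP libraries as the antioxidant and oxidase genes, and how far a change in the mix of sorted cells entered any of these values was not tested.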

How the data were processed

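The values are raw counts per Ensembl gene, which the authors made and deposited without normalization; per the submitters' processing notes reads were aligned with STAR 2.6 to GRCm38.p6 (mm10) and counted with HTSeq 0.10.0. Reads were 75 bases long. Genes were named with GENCODE vM21, and 26 table entries had no match. In R 4.3.3, edgeR 4.0.16 tested WGP against PBS (TMM, quasi-likelihood F test, Benjamini-Hochberg over 14429 genes, those that code for protein and whose RLE-normalized counts reached 10 in sum), after a test on simulated data. A gene was called at an adjusted p of at most 0.05. SE is the log2 fold change over the square root of F. DESeq2 1.42.0 and limma-voom (limma 3.58.1) were alternatives, with other scalings, filters, a replicate block, a Y-linked covariate and each library left out. An exact permutation test of 3 against 3 cannot go below p = 0.1 (two-sided) and was not used. The 10 genes, the lists and the alternatives were chosen with earlier results of these data known. Named are the 10 genes, up to 4 called genes of each list with the smallest p, 18 further genes chosen by name, and the most abundant and called markers and those at 0; Trmt112 was added after its values were seen. Mafg, Nnt and Mgst1 were in the lists beforehand and were picked to be named after their values were seen. Of the markers that this rule selects, only some are named in the text. The most frequent count above 1 was 18 to 37 in a library, so several reads can come from 1 molecule, and counting error understates the error of low counts.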

Additional observations from a re-analysis of the deposited data

How the results depend on the processing

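Of the 160 values that 16 alternatives gave for the 10 genes, 150 kept direction and side of the threshold, 7 lost the call (Prdx1 and Gclm), 3 gained it (Cat) and 0 changed direction. The 160 values include the fit with the Y-linked covariate, which compares WGP with PBS 1 alone, and its count of calls is left out here. The count of the 10 called higher was 6 under each other scaling, test and filter and with the replicate block, and 4 to 6 with a library left out. Called lower was 1 gene (Cat) with library totals and 1 in DESeq2, and 0 to 1 with a library left out. Over all genes 2071 were called, 2679 in DESeq2 (of 13599 tested), 1369 with the fold threshold, and 1417 to 2203 with a library left out. The wider genes called were 7 to 16 higher and 9 to 17 lower with a library left out. They were 13 higher and 18 lower with library totals, and 17 higher and 18 lower in DESeq2.

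The replicate numbers were checked for pairing: deviations of same-numbered libraries correlated at 0.023, -0.065 and 0.043 across genes. Differently numbered libraries correlated at -0.076 to 0.050. The numbers thus gave no sign of pairing over all genes, which cannot exclude a link that moves few genes. With the replicate block 1947 genes were called, with 6 of the 10 higher and 0 lower, and 14 wider genes in each direction.

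The direction of Sod3 (log2 fold change 1.51) reversed in limma-voom (-0.29), with the replicate block (-0.58) and without WGP 2 (-1.72), and that of Gclc (-0.05) with the Y-linked covariate (0.0079), without PBS 3 (0.02) and without WGP 3 (0.092). With a library left out Sod3 ran from -1.72 to 2.08 and Gclc from -0.17 to 0.092. None of these was called, and the cause was not tested. Other limits are the 3 libraries per group, the exon bases that Prdx5 shares with Trmt112, and sequence shared with near-identical copies. RNA of other cells is a further limit, such as fibroblasts in WGP 2, acinar cells in PBS 2 and B cells in PBS 1. The sex of the mouse behind each library was not given. Y-linked RNA was in PBS 2 and PBS 3 and, beyond 1 count in WGP 3, in no WGP library, so its presence is partly tied to treatment. The alternatives were not run for Trmt112, Mafg, Mgst1, Nnt or the counts of single lists.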

Other observations

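Nnt, the transhydrogenase that makes NADPH in mitochondria and so feeds the glutathione and thioredoxin systems there, was named after its values were seen. It had 0.936, 0.0257 and 1.2 CPM in PBS and 1.66, 1.35 and 0.733 CPM in WGP, under a second entry of the same symbol at 0 in every library. All 6 libraries held few counts of it and the groups overlapped. As background, C57BL/6J, the strain of the wild-type mice used in the study, is known to carry a deletion within this gene, and the genotype of the mice behind these libraries was not tested.

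Mgst1, a membrane-bound glutathione transferase and peroxidase, also named after its values were seen, was at 49.0, 45.0 and 44.2 CPM in PBS and 64.7, 164 and 65.2 CPM in WGP. For Mgst1, WGP 1 and WGP 3 were nearly equal and WGP 2 was far above them. WGP 2, the library with the most fibroblast and mesothelial RNA, was also far above the other WGP libraries for Prdx1 and Sod3. The log2 fold change of Mgst1, 1.09 ± 0.33, was not called (edgeR adjusted p = 0.0519), and the part of the other cells' RNA was not tested.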
